A study of Mus musculus with 12 samples.

Results

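The corticotropin and glucocorticoid axis was followed through 10 genes of the mouse brain, which were taken by name from a table of 55385 genes and all of which had 1 row in it. They were the peptide gene Crh, its receptors Crhr1 and Crhr2, its binding protein Crhbp, the steroid receptors Nr3c1 and Nr3c2, the glucocorticoid-responsive genes Fkbp5, Tsc22d3 and Sgk1, and the steroid enzyme gene Hsd11b1. The brains came from male wild-type C57/BL6J mice bought at 8 weeks of age, and poly(A) RNA of 1 saline-perfused whole brain gave each of the 12 libraries. The C_W mice had no stress and were given water, the C_O mice had no stress and were given krill oil, the MS_W mice had chronic unpredictable mild stress (CUMS) and water, and the MS_O mice had CUMS and krill oil, with 3 mice in each group. CUMS lasted 4 weeks, and krill oil or water was given into the stomach for 5 weeks, the oil at 200 mg/kg per day. A library is named by its group and mouse number, as in MS_W95, and values within a group are given in the order C_W1, C_W64 and C_W70, C_O15, C_O30 and C_O72, MS_W31, MS_W75 and MS_W95, and MS_O13, MS_O46 and MS_O78.

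Corticotropin-releasing hormone, the product of Crh, is released by hypothalamic neurons during stress, drives the pituitary to secrete corticotropin, and so raises glucocorticoid output from the adrenal gland. In the brain the hormone is also made by cortical interneurons and amygdala neurons and acts through CRHR1 and CRHR2, while the protein encoded by Crhbp binds it and limits its action. Glucocorticoids bind the mineralocorticoid receptor (Nr3c2) with high affinity and the glucocorticoid receptor (Nr3c1) with lower affinity, and both receptors act as transcription factors. Fkbp5, Tsc22d3 and Sgk1 are widely used readouts of that action, and the enzyme encoded by Hsd11b1 regenerates active glucocorticoid inside cells.

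The glucocorticoid receptor binds an inverted repeat of AGAACA whose copies are 3 bases apart, so windows of 250 bases before to 50 bases after the RefSeq start sites (GRCm38.p6) were searched for the half-site AGAACA or TGTTCT on either strand and for the full repeat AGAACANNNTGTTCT, which contains 2 of the half-sites. Windows of 8 of the 10 genes were used, 15 in all, and 4 of these held a half-site, as did 19.0% of all 32851 windows. Those 4 windows belonged to only 2 genes, Sgk1 and Tsc22d3. The full repeat was found in 3 windows of the whole table (0.00913%), and 1 of them belonged to Sgk1. The windows below are those of the 3 target genes that the results turn on, 1 each for Sgk1 (chr10:21993640-21993939, plus strand), Tsc22d3 (chrX:140600473-140600772, minus strand) and Fkbp5 (chr17:28486100-28486399, minus strand), written 5′ to 3′ with half-sites in capitals.
Sgk1: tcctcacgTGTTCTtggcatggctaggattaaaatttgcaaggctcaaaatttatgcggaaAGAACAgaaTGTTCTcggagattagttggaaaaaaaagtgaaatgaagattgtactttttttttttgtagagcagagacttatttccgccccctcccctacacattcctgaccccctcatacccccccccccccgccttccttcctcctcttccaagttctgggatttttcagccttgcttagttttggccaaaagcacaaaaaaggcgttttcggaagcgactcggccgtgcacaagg
Tsc22d3: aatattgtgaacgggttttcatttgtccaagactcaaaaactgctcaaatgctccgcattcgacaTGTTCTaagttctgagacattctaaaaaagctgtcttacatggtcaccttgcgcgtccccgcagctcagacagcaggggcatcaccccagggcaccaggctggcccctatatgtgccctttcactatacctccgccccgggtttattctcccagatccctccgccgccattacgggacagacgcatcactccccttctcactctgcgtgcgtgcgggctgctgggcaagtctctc
Fkbp5: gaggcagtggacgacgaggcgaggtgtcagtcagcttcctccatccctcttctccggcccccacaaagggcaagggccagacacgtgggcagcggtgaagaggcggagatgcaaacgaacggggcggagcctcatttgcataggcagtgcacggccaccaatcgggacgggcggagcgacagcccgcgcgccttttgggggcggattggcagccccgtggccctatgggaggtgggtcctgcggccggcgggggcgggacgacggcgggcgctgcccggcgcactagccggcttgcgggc
The Sgk1 window held the full repeat and 1 further TGTTCT upstream of it, the Tsc22d3 window held 1 TGTTCT, and neither string of letters occurred in the Fkbp5 window. Sgk1 had 6 windows and Tsc22d3 had 3, since their transcripts start at several sites. A match is a description of the letters only.

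All 10 genes passed the filter for testing, a mean over the 12 libraries of at least 0.1 FPKM (fragments on each kilobase of a transcript, relative to all mapped fragments of the library), which 21393 genes of the table passed. Coordinates below are those of the deposited table (mm10), and those of 8 among the 10 matched GENCODE M21 at both ends. Estimated counts summed to between 50912906 and 75678721 per library. All C_W libraries (69768244 at the lowest) were deeper than all MS_W libraries (61608502 at the highest), so depth moved with CUMS among mice on water. Between 52.5% and 55.1% of the genes in the table were listed at 0.0001, the value given where there was no estimate.

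A pair of libraries, C_O72 and MS_W95, differed from the remaining 10. Their log2(FPKM + 1) values correlated with each other at r = 0.970 across genes, and neither exceeded 0.937 with any other library, whereas the lowest r among the other 10 was 0.959 (genes are not independent replicates). Lists of marker genes showed which regions moved with them. The summed level of 8 hindbrain genes, among them Hoxb4 and Tph2, was 73.3 FPKM in C_O72 and 47.7 in MS_W95 but 0.0534 to 0.498 in the other 10, and all 8 genes were higher in both than in any of the 10. The sum of 8 cerebellar genes was 316 and 1089 FPKM against 30.9 to 47.3, that of 8 oligodendrocyte genes was 1266 and 709 against 259 to 504, and that of 8 choroid plexus genes was 4859 and 1828 against 2.65 to 846. Thus the defining hindbrain genes of the labelled tissue, whole brain, were near 0 in 10 of the 12 libraries. Values over the other 10 libraries stand beside those over all 12 where so stated below, and since bulk RNA was measured, fewer cells of a type and less RNA per cell cannot be told apart.

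**Figure D1:**
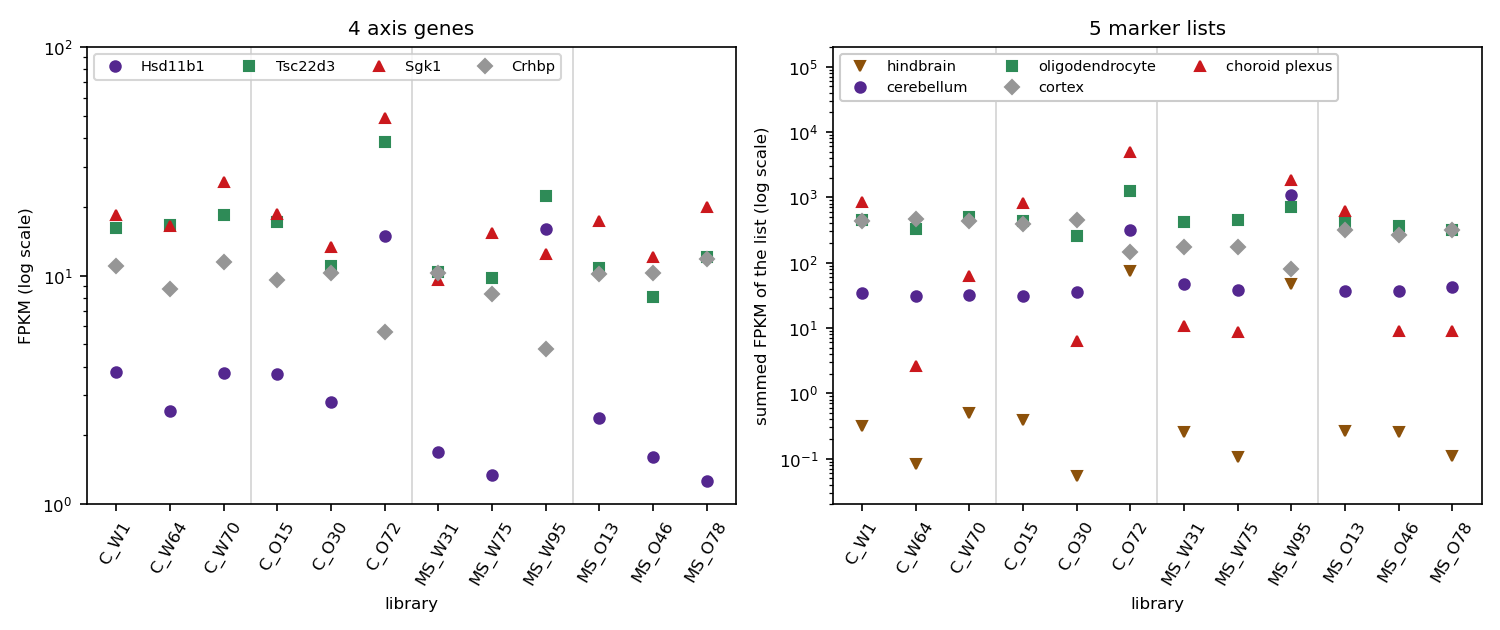
Left, FPKM of Hsd11b1, Tsc22d3, Sgk1 and Crhbp in each of the 12 libraries. Right, summed FPKM of 5 marker lists in the same libraries. Both vertical axes are logarithmic, each point is 1 library, and grey lines divide the groups. In C_O72 and MS_W95 the hindbrain sums were 73.3 and 47.7 and Hsd11b1 was at 14.9 and 16.1 FPKM, above the other 10 libraries in both cases.

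By their medians over the 12 libraries, the 10 genes were ordered as Sgk1 (16.9 FPKM), Tsc22d3 (14.1), Crhr1 (12.1), Crhbp (10.2), Nr3c1 (9.19), Nr3c2 (5.52), Fkbp5 (4.44), Crh (3.58), Hsd11b1 (2.67) and Crhr2 (0.287). Most neighbours in this order were not separated. Crhr1 was above Crhbp in 7 of 12 libraries, Crhbp was above Nr3c1 in 7, and Fkbp5 was above Crh in 8, while Sgk1 was above Tsc22d3 in 9 and Nr3c1 was above Nr3c2 in 10. Only Crhr2 lay below its neighbour, Hsd11b1, in all 12 libraries. The ratio of the highest to the lowest library was largest for Hsd11b1 (12.7) and smallest for Nr3c1 (2.10). Without C_O72 and MS_W95 the ratio of Hsd11b1 was 3.00 and that of Fkbp5 went from 3.18 to 1.26.

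**Figure D2:**
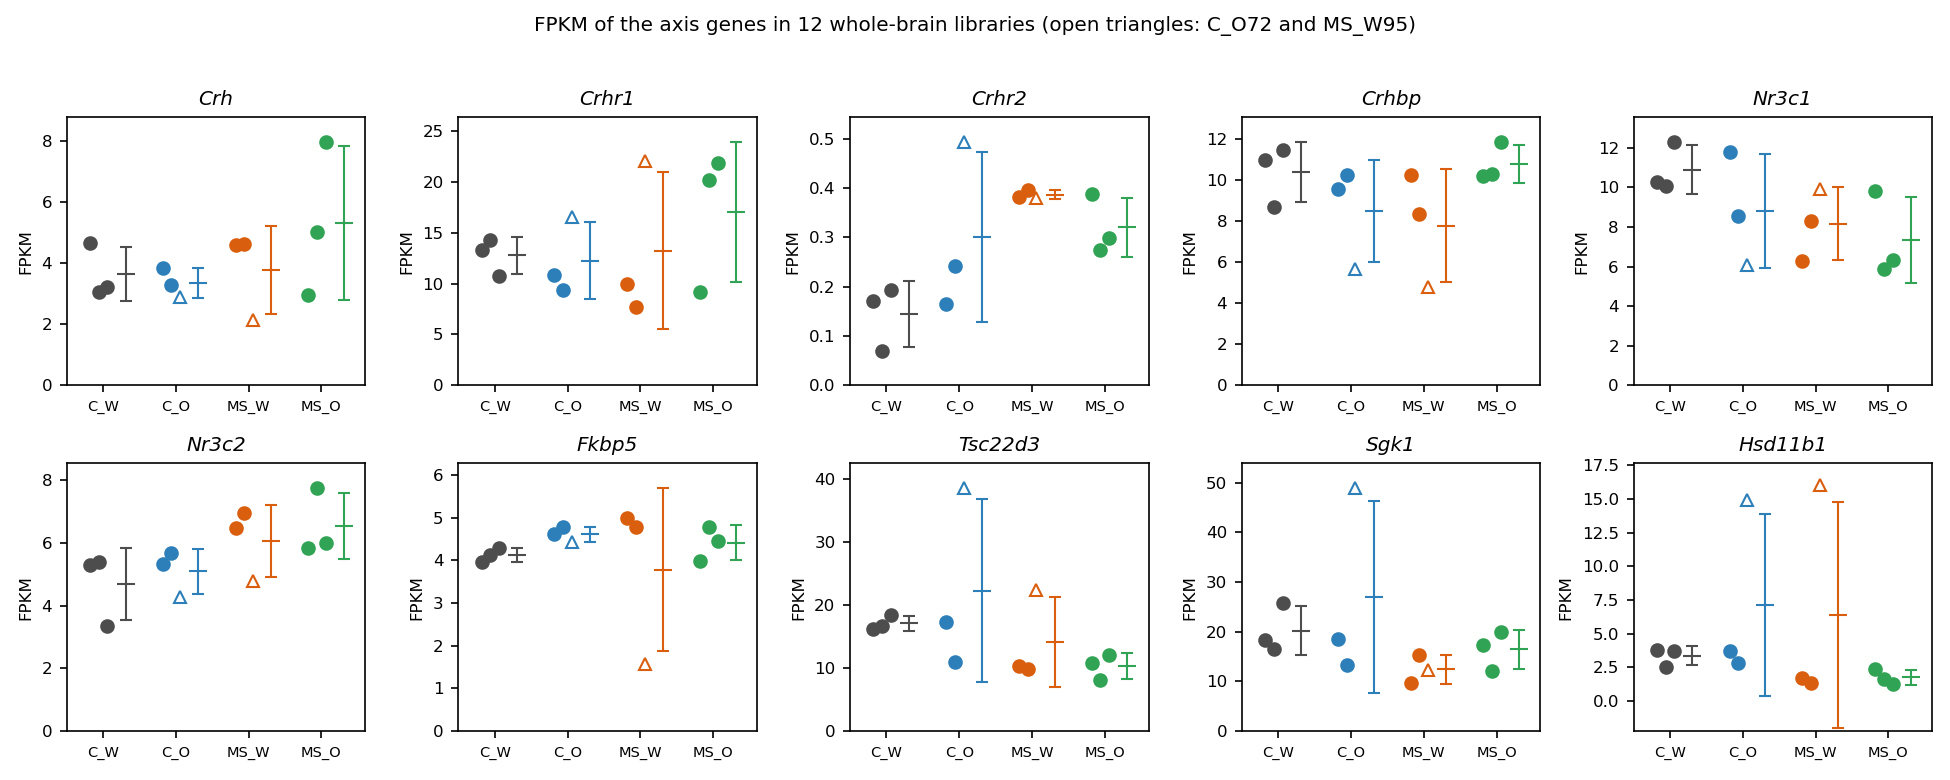
FPKM of the 10 genes (linear vertical axes, 1 panel a gene) in the 4 groups. Each point is 1 library, open triangles are C_O72 and MS_W95, and the bars beside them are the mean and SD of the 3 mice. The MS_W points of Crhr2 (0.380 to 0.397) lie above all C_W points (0.0685 to 0.194), and the triangles of Hsd11b1 lie at 14.9 and 16.1.

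Group means were compared by 1 limma fit of log2(FPKM + 1) over the 4 groups, in which a log2FC is the difference of group means on that scale. A differentially expressed gene (DEG) met the criteria of the study, which are p below 0.05 before adjustment and group mean FPKM differing by more than 1 on the log2 scale, and p was also adjusted over all tested genes. Of the 10 genes, 1 was a DEG between C_W and MS_W, where 4.59% of all tested genes were. None was between C_O and MS_O (3.57% of all), C_W and C_O (1.76%) or MS_W and MS_O (2.81%), where the limma count of the 10 genes with an unadjusted p under 0.05 was also 0 (8.88%, 3.55% and 6.09% of all). For these 3 comparisons edgeR and DESeq2 gave DEG counts of 2 and 2 (Hsd11b1 and Tsc22d3), 1 and 1 (Crhr2), and 0 and 1 (Hsd11b1). Over all 21393 genes they gave 701 and 816, 510 and 599, and 566 and 669. With 1 library left out, the limma DEG count was 2 between C_O and MS_O without C_O30, 1 between C_W and C_O without C_O15, and 0 between C_W and MS_W without C_W64. Over all genes these fits called 1126 of 21381, 892 of 21424 and 801 of 21375. None of the 10 had an interaction of CUMS and krill oil with an unadjusted p under 0.05 (7.23% of all), against 1 each in edgeR and DESeq2 (Hsd11b1) and 1 in limma without C_W64, C_O15, C_O30 or MS_W31. Over all genes edgeR and DESeq2 had 1732 and 2135 of 21393, and those limma fits had 1000 to 2191. No adjusted p of the 10 was below 0.05 in limma, and the smallest was 0.358. Over all genes, 0.00467% passed that limit in C_W vs. MS_W, C_O vs. MS_O and MS_W vs. MS_O alike, and 0.0% did in C_W vs. C_O and in the interaction.

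Crh, on chromosome 3 (19693401 to 19695396, minus strand), was at 4.67, 3.05 and 3.23 FPKM in C_W, 3.86, 3.30 and 2.90 in C_O, 4.61, 4.63 and 2.12 in MS_W, and 2.97, 5.04 and 7.99 in MS_O. The groups overlapped throughout, and the highest value, in MS_O78, stood well above the other MS_O libraries. The mean was 3.65 ± 0.884 FPKM in C_W and 3.79 ± 1.44 in MS_W (SD, n = 3), and the log2FC was 0.01 (SE 0.31, 95% interval -0.67 to 0.69, limma adjusted p = 0.995). In MS_O it was 5.33 ± 2.52 FPKM, and the log2FC from C_O to MS_O was 0.47 (SE 0.31, limma adjusted p = 0.676). MS_W95, the lowest of all 12 libraries, set the first of these values, which was 0.29 (SE 0.30) in the 10 libraries.

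The CRH receptors took different courses. Crhr1, the main CRH receptor of the forebrain (chromosome 11, 104132855 to 104175523, plus strand), was at 13.3, 14.3 and 10.7 FPKM in C_W, 10.9, 9.37 and 16.5 in C_O, 9.96, 7.67 and 22.1 in MS_W, and 9.15, 20.2 and 21.8 in MS_O. The high values were thus in C_O72, MS_W95, MS_O46 and MS_O78, and no pair of groups was separated. A list of 7 olfactory bulb genes summed to 236 and 238 FPKM in MS_O46 and MS_O78 against at most 87.5 elsewhere. It was low in C_O72 and MS_W95, at 4.46 and 8.68 FPKM, so it did not move with Crhr1 there. The cerebellar genes summed to 316 and 1089 FPKM in C_O72 and MS_W95 but to 37.0 and 42.2 in MS_O46 and MS_O78. The part of these lists in the Crhr1 values was not tested. With all libraries the log2FC from MS_W to MS_O was 0.39 (SE 0.39, limma adjusted p = 0.861). Without C_O72 and MS_W95 it was 0.80 (SE 0.32), with an unadjusted p of 0.0331 (8.42% of all) and an adjusted p of 0.538 in limma, and the interaction was 1.11 (SE 0.45) with an unadjusted p of 0.0367 (7.46% of all genes tested there) and an adjusted p of 0.631.

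Crhr2 encodes the receptor that prefers the urocortins and is restricted in the brain to sites such as the lateral septum, ventromedial hypothalamus and choroid plexus. It lies on chromosome 6 (55090049 to 55133016, minus strand) and was at 0.171, 0.0685 and 0.194 FPKM in C_W, 0.165, 0.241 and 0.494 in C_O, 0.383, 0.397 and 0.380 in MS_W, and 0.388, 0.274 and 0.299 in MS_O. All MS_W values lay above all C_W values, and the highest value of all was in C_O72. The mean rose 2.67-fold, from 0.145 ± 0.0668 FPKM in C_W to 0.387 ± 0.00901 in MS_W (SD, n = 3), with a log2FC of 0.28 (SE 0.094, 95% interval 0.07 to 0.49), an unadjusted p of 0.0138 and an adjusted p of 0.358 in limma. This was the single DEG among the 10 genes. The values rested on 28 to 166 estimated counts per library, and with C_W64 left out, whose value was the lowest, the DEG criteria were no longer met (log2FC 0.23, limma adjusted p = 0.729). They were also not met after centring each library on its median (log2FC 0.19, SE 0.092, unadjusted limma p of 0.0650) or with a summed-level covariate (0.24, SE 0.14). That covariate was the sum of a library's log2(FPKM + 1) values below their upper quartile, not its depth. With the fold taken from the limma difference they could not be met. Values of at most 0.494 FPKM cannot differ by more than 1 in log2(FPKM + 1). Over the 10 libraries the log2FC was 0.28 (SE 0.078, limma adjusted p = 0.146). A list of 13 hypothalamic genes, 11 of which were listed at 0.0001 in at least 1 library, summed to 132, 125 and 13.5 FPKM in MS_W and to 3.11 to 14.2 in C_W, so it moved with Crhr2 in MS_W31 and MS_W75 but not in MS_W95. A list of 8 striatal genes did likewise, at 351, 526 and 62.5 FPKM in MS_W against 48.4 to 102 in C_W. The 8 choroid plexus genes summed to 10.5, 8.60 and 1828 FPKM in MS_W, 4859 in C_O72 and 2.65 to 846 in C_W. The part of these lists in the Crhr2 values was not tested. Between C_O and MS_O Crhr2 overlapped in the 12 libraries (log2FC 0.03, SE 0.094), whereas without C_O72 both C_O values lay below all MS_O values (log2FC 0.13, SE 0.078, limma adjusted p = 0.459 in the 10 libraries). In the 12 libraries the interaction of -0.25 (SE 0.13, limma adjusted p = 0.665) did not pass the threshold.

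Crhbp, whose product sequesters CRH (chromosome 13, 95431371 to 95444924, minus strand), was at 11.0, 8.71 and 11.5 FPKM in C_W, 9.58, 10.2 and 5.68 in C_O, 10.2, 8.33 and 4.78 in MS_W, and 10.2, 10.3 and 11.8 in MS_O. The values of C_O72 and MS_W95 were the lowest, and the other 10 libraries lay within a ratio of 1.42. The largest contrast was the interaction, at 0.77 (SE 0.36, 95% interval -0.03 to 1.56) with an unadjusted p of 0.0584 and an adjusted p of 0.665 in limma, and it was 0.25 (SE 0.19) in the 10 libraries. The sum of 8 cortical genes, at 143 FPKM in C_O72 and 79.2 in MS_W95 against 171 to 466 in the other 10, was low in the same libraries, and its part in the Crhbp values was not tested.

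The log2FC from C_W to MS_W had opposite signs for the steroid receptors, and neither passed the threshold. Nr3c1 (chromosome 18, 39410545 to 39519421, minus strand) was at 10.3, 10.1 and 12.3 FPKM in C_W, 11.8, 8.57 and 6.08 in C_O, 6.26, 8.33 and 9.93 in MS_W, and 9.82, 5.87 and 6.34 in MS_O. Its C_W values were all above its MS_W values, the MS_W mean was 0.75 times the C_W mean, and the log2FC was -0.39 (SE 0.24, 95% interval -0.93 to 0.15, limma adjusted p = 0.576). Nr3c2 (chromosome 8, 76899442 to 77245012, plus strand) was at 5.31, 5.38 and 3.36 FPKM in C_W, 5.33, 5.66 and 4.29 in C_O, 6.47, 6.94 and 4.77 in MS_W, and 5.84, 7.76 and 6.01 in MS_O. Its MS_O values were all above its C_O values, the log2FC being 0.30 (SE 0.19, limma adjusted p = 0.661), whereas MS_W95 overlapped with C_W (log2FC 0.32, SE 0.19, limma adjusted p = 0.558). In the 10 libraries the log2FC from C_W to MS_W was -0.53 (SE 0.22) for Nr3c1 and 0.46 (SE 0.18) for Nr3c2, with adjusted p of 0.2996 and 0.274 in limma. A gene on the opposite strand, Gm10649, shares 247 exon bases with Nr3c2 in GENCODE M21, and whether counting used strand was not stated.

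The ratio of Nr3c2 to Nr3c1 was 0.516, 0.532 and 0.273 in C_W, 0.451, 0.661 and 0.706 in C_O, 1.03, 0.834 and 0.481 in MS_W, and 0.595, 1.32 and 0.948 in MS_O. Nr3c2 therefore exceeded Nr3c1 in MS_W31 and MS_O46 and in no mouse without CUMS. The ratio was chosen after the values were seen, and it is given without a test.

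**Figure D3:**
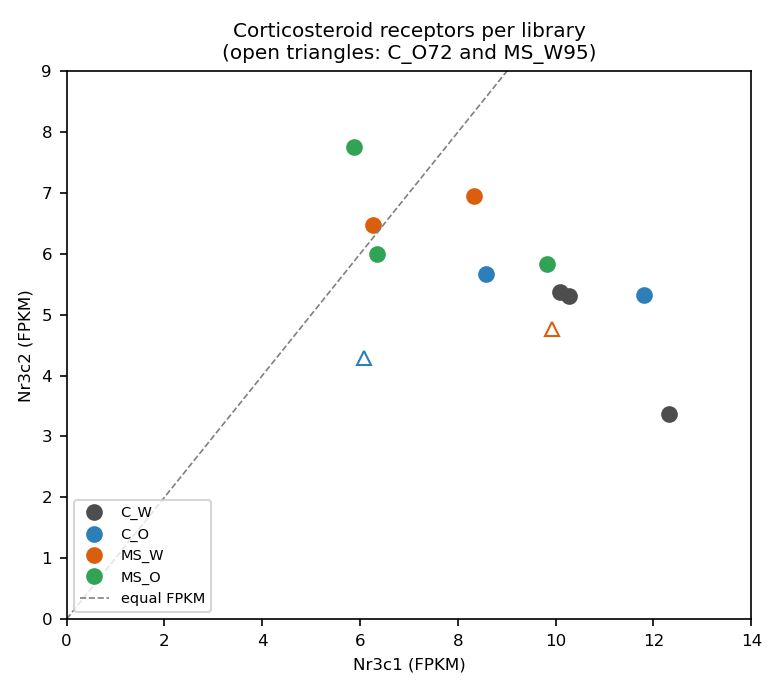
FPKM of Nr3c2 against FPKM of Nr3c1, linear axes, 1 point a library, coloured by group, with C_O72 and MS_W95 as open triangles and a dashed line at equal FPKM. The C_W points lie at 10.1 FPKM of Nr3c1 or more, and only MS_W31 and MS_O46 lie above the line.

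Among the target genes, Fkbp5 was the most even. This gene (chromosome 17, 28399094 to 28517527, minus strand), whose product is a co-chaperone that lowers the hormone affinity of the glucocorticoid receptor, was at 3.95, 4.13 and 4.29 FPKM in C_W, 4.61, 4.79 and 4.42 in C_O, 5.00, 4.78 and 1.57 in MS_W, and 3.98, 4.79 and 4.46 in MS_O. MS_W95 was by far the lowest, and the other 10 libraries besides it and C_O72 had a coefficient of variation of 8.34%. All C_O values were above all C_W values, at 4.61 ± 0.183 against 4.12 ± 0.169 FPKM (SD, n = 3), where 9.42% of all genes had groups without overlap, and the log2FC was 0.13 (SE 0.26, limma adjusted p = 0.941). Among the 10 libraries, where the spread was smaller, it was 0.15 (SE 0.093, limma adjusted p = 1.00), and the log2FC from C_W to MS_W went from -0.20 (SE 0.26) to 0.20 (SE 0.093, limma adjusted p = 0.348).

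Tsc22d3, which encodes the anti-inflammatory protein GILZ (chromosome X, 140539528 to 140600659, minus strand), was at 16.2, 16.6 and 18.4 FPKM in C_W, 17.2, 11.0 and 38.6 in C_O, 10.4, 9.76 and 22.4 in MS_W, and 10.8, 8.10 and 12.03 in MS_O. C_O72 and MS_W95 were the highest of the 12. The log2FC was -0.35 (SE 0.40, limma adjusted p = 0.744) from C_W to MS_W and -0.88 (SE 0.40, limma adjusted p = 0.566) from C_O to MS_O, the latter with an unadjusted p of 0.0547. Without C_O72 and MS_W95 both MS_W values lay below all C_W values, at a log2FC of -0.71 (SE 0.19) and an adjusted p of 0.142 in limma, and that from C_O to MS_O was -0.40 (SE 0.19, limma adjusted p = 0.391).

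Sgk1, a kinase gene whose product regulates ion channels and transporters (chromosome 10, 21882184 to 21999893, plus strand), was at 18.4, 16.5 and 25.8 FPKM in C_W, 18.5, 13.3 and 49.0 in C_O, 9.60, 15.4 and 12.4 in MS_W, and 17.4, 12.1 and 19.9 in MS_O. All MS_W values were below all C_W values, MS_W95 included. The mean was 20.2 ± 4.94 FPKM in C_W and 12.4 ± 2.88 in MS_W (SD, n = 3), and the log2FC was -0.66 (SE 0.40, 95% interval -1.54 to 0.23, limma adjusted p = 0.570). In the 10 libraries this log2FC was -0.66 (SE 0.28, limma adjusted p = 0.302), and that from C_O to MS_O went from -0.49 (SE 0.40) to 0.04 (SE 0.28), C_O72 having the highest value. Oligodendrocyte genes, which summed to 1266 FPKM in C_O72, moved with Sgk1 and Tsc22d3 there. In MS_W95 they summed to 709 FPKM, where Tsc22d3 was high (22.4 FPKM) but Sgk1 was not (12.4 FPKM). Their part was not tested.

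Hsd11b1 (chromosome 1, 193221634 to 193243561, minus strand) was at 3.80, 2.55 and 3.75 FPKM in C_W, 3.71, 2.80 and 14.9 in C_O, 1.70, 1.35 and 16.1 in MS_W, and 2.39, 1.61 and 1.26 in MS_O. Its values in C_O72 and MS_W95 were several times those of any other library, together with the cerebellar and hindbrain genes given above, whose part was not tested. Every MS_O value was below every C_O value, and the log2FC was -1.28 (SE 0.72, 95% interval -2.86 to 0.31, limma adjusted p = 0.626). From C_W to MS_W the log2FC was 0.14 (SE 0.72, limma adjusted p = 0.948) in 12 libraries and -0.78 (SE 0.21, limma adjusted p = 0.129) in the other 10, so the direction turned. Within the 10, Hsd11b1 met the DEG criteria between C_W and MS_W, at a fold of 0.452, and had an unadjusted p of 0.0133 (13.7% of all) and an adjusted p of 0.329 in limma between C_O and MS_O (log2FC -0.64, SE 0.21).

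Between C_W and MS_W the groups did not overlap for 3 of the 10 genes, Crhr2 (higher in MS_W), Sgk1 and Nr3c1 (lower), where 24.6% of all tested genes did not overlap. The corresponding count was 2 between C_O and MS_O, for Nr3c2 and Hsd11b1 (12.2% of all), 1 between C_W and C_O, for Fkbp5 (9.42%), and 0 between MS_W and MS_O (12.3%). In the 10 libraries, 6 of the 10 genes had an unadjusted p under 0.05 between C_W and MS_W, where 15.3% of all did: Crhr2 and Nr3c2 were higher in MS_W, and Hsd11b1, Tsc22d3, Sgk1 and Nr3c1 were lower. Of these, Crhr2 and Hsd11b1 were DEGs (5.75% of all), groups did not overlap for 8 of the 10 genes (39.1% of all), and none had an adjusted p under 0.05 (1.18% of all). That comparison sets 3 C_W libraries against 2 MS_W libraries.

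**Figure D4:**
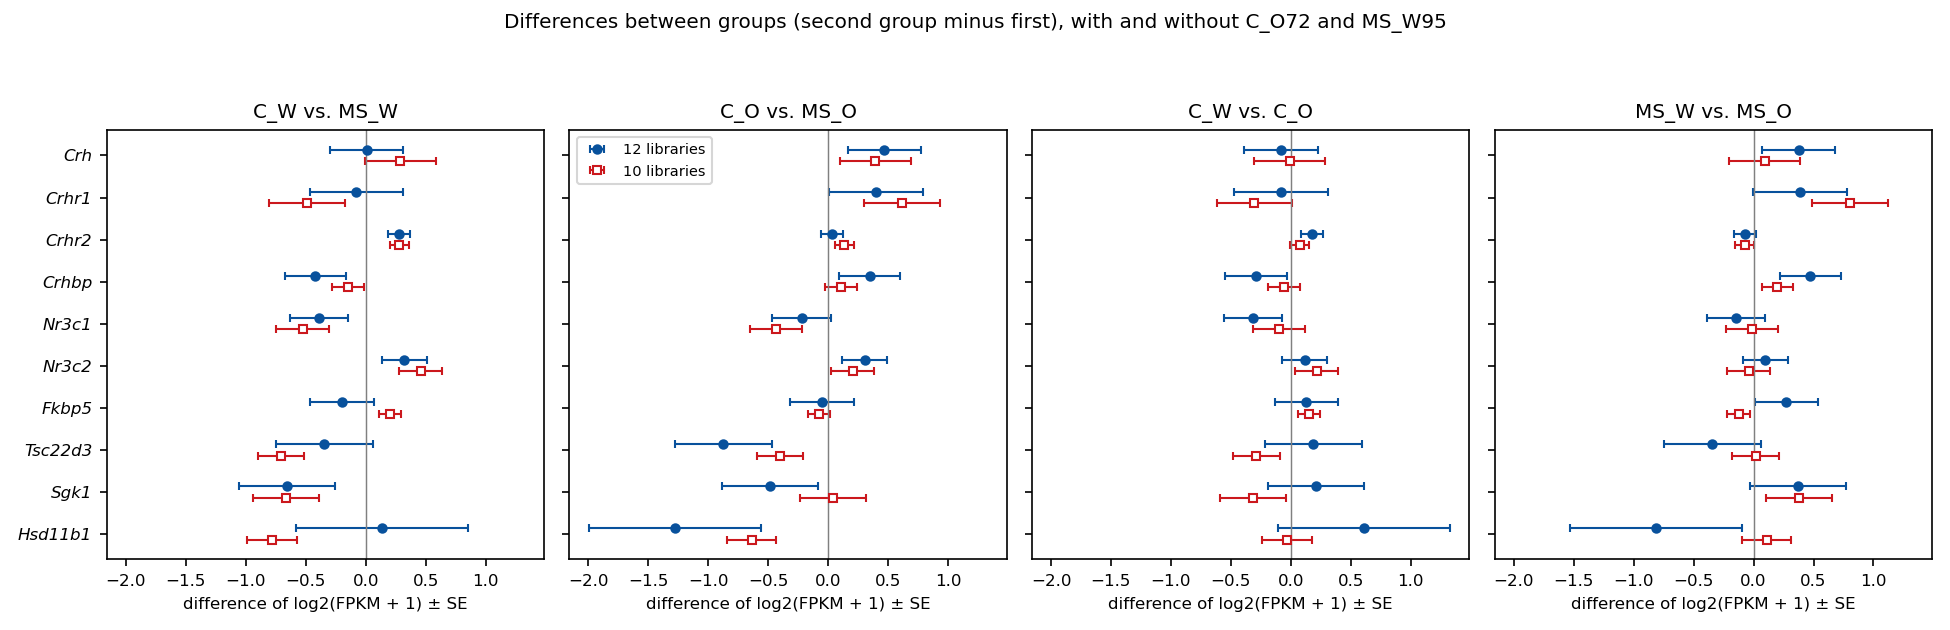
Differences of log2(FPKM + 1) between groups for the 10 genes, second group minus first, with bars of 1 SE from limma. Filled circles are the fit of 12 libraries and open squares that of the 10 without C_O72 and MS_W95. From C_W to MS_W, Hsd11b1 goes from 0.14 to -0.78 and Fkbp5 from -0.20 to 0.20, while Crhr2 (0.28 in both), Sgk1 (-0.66 in both) and Nr3c1 keep their sides.

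Other genes of the axis were taken from 4 lists, whose genes were chosen with earlier results of these data known. In a list of 30 glucocorticoid-induced genes, 29 were tested, and between C_W and MS_W 6 of them had an unadjusted p under 0.05, all of them lower in MS_W (10.5% of all genes, in either direction, had one). The 5 that fell as DEGs were Zbtb16, Hif3a, Klf9, Map3k6 and Plin4 (2.1% of all genes were DEGs lower in MS_W), and no adjusted p was below 0.05 in limma (smallest 0.185) or, for these 5, in edgeR (0.216 to 0.429). DESeq2 gave adjusted p of 3.41e-05 for Hif3a, 0.000185 for Zbtb16, 0.00187 for Map3k6, 0.0172 for Klf9 and 0.0646 for Plin4. The median log2FC of the list was -0.20, beside 0.06 over all genes.

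Zbtb16, which encodes a zinc finger repressor strongly induced by glucocorticoids, was at 3.93, 5.96 and 7.95 FPKM in C_W and at 1.77, 1.03 and 0.893 in MS_W, a fall of 4.84-fold (log2FC -1.62, SE 0.33, limma adjusted p = 0.185). Klf9, a Krüppel-like transcription factor gene, was at 41.5, 39.4 and 44.3 FPKM in C_W and at 25.3, 9.02 and 7.49 in MS_W (2.99-fold lower, log2FC -1.71, SE 0.38, limma adjusted p = 0.223). Hif3a, a hypoxia-inducible factor gene, was at 1.35, 1.88 and 1.66 FPKM in C_W and at 0.578, 0.770 and 0.642 in MS_W (2.45-fold lower, log2FC -0.66, SE 0.14, limma adjusted p = 0.201). For these genes, and for the kinase gene Map3k6 (2.90-fold lower) and the lipid droplet gene Plin4 (3.91-fold lower), all MS_W libraries lay below all C_W libraries. This held for 9 of the 29 tested genes of the list, where 24.6% of all genes had groups without overlap in either direction. In the 10 libraries the same 5 genes were DEGs (5.75% of all genes were, in either direction), 9 of the list had an unadjusted p under 0.05 (15.3% of all), all lower in MS_W, and the smallest adjusted p was 0.0832 in limma. In an ordinary linear model with the summed-level covariate, 1 gene of the list was a DEG. Over all 21393 genes that model called 302, against 983 in the main fit. The cortical marker genes were also lower in MS_W, at sums of 174, 171 and 79.2 FPKM against 426 to 466 in C_W, and their part was not tested.

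The same list had fewer DEGs in the other comparisons, a difference that was not tested. Between C_O and MS_O, Plin4 fell (3.14, 1.18 and 8.03 FPKM against 1.14, 0.592 and 0.620, log2FC -1.30, limma adjusted p = 0.479, DESeq2 adjusted p = 0.0299) and the cell cycle inhibitor gene Cdkn1a rose (4.63, 5.82 and 6.99 FPKM against 5.78, 15.4 and 19.2, limma adjusted p = 0.517) by the DEG criteria (0.753% of all genes were DEGs lower and 2.82% higher in MS_O), and the list had a median log2FC of -0.09, beside 0.03 over all genes. Without C_O72 and MS_W95 the log2FC of Plin4 was -0.77 (SE 0.31, limma adjusted p = 0.346). Between MS_W and MS_O, Klf9 rose to 39.7, 30.2 and 31.7 FPKM (log2FC 1.40, SE 0.38, limma adjusted p = 0.647), and Cebpd, a transcription factor gene of acute inflammation, rose from 0.627, 0.777 and 0.408 FPKM to 0.622, 1.25 and 1.99 (limma adjusted p = 0.810, where 1.43% of all genes were DEGs higher in MS_O). Neither was a DEG in the 10 libraries, where the count for the list was 0, as it was without MS_W95 alone. Over all genes these fits called 696 of 21171 and 583 of 21261. In the fit of the 10 libraries Klf9 had a log2FC of 1.09 (SE 0.35, unadjusted p of 0.0122 in limma) and a log2 ratio of group means of 0.98, just under the limit of 1, and its groups still did not overlap. Of the 29 list genes, 8 were higher and 2 lower without overlap there, with 2 MS_W libraries. The share of all genes without overlap in that comparison is not given, so these counts are a description only. Between C_W and MS_W in the 10 libraries, also with 2 MS_W libraries, it was 39.1%. Between C_O and MS_O the DEG count of 2 was 5 without MS_O13 and 1 without C_O15, MS_O46 or MS_O78, and between MS_W and MS_O that of 2 was 4 without MS_W75 or MS_O13 and 1 without MS_O78. Over all genes, 764 DEGs between C_O and MS_O were 1251, 860, 463 and 540 in these fits, in the order named. Those between MS_W and MS_O, 602 in the main fit, were 764, 940 and 462. The interaction had an unadjusted p under 0.05 for Klf9 (1.82, SE 0.54, limma adjusted p = 0.652) and Hif3a (0.60, SE 0.20, limma adjusted p = 0.665), 2 of 29 genes where 7.23% of all had one. In the 10 libraries it was 1.26 (SE 0.49) for Klf9 and 0.69 (SE 0.20) for Hif3a. None of the 29 genes had an unadjusted p under 0.05 between C_W and C_O in limma, the median log2FC was 0.06, and edgeR and DESeq2 also gave 0 DEGs.

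**Figure D5:**
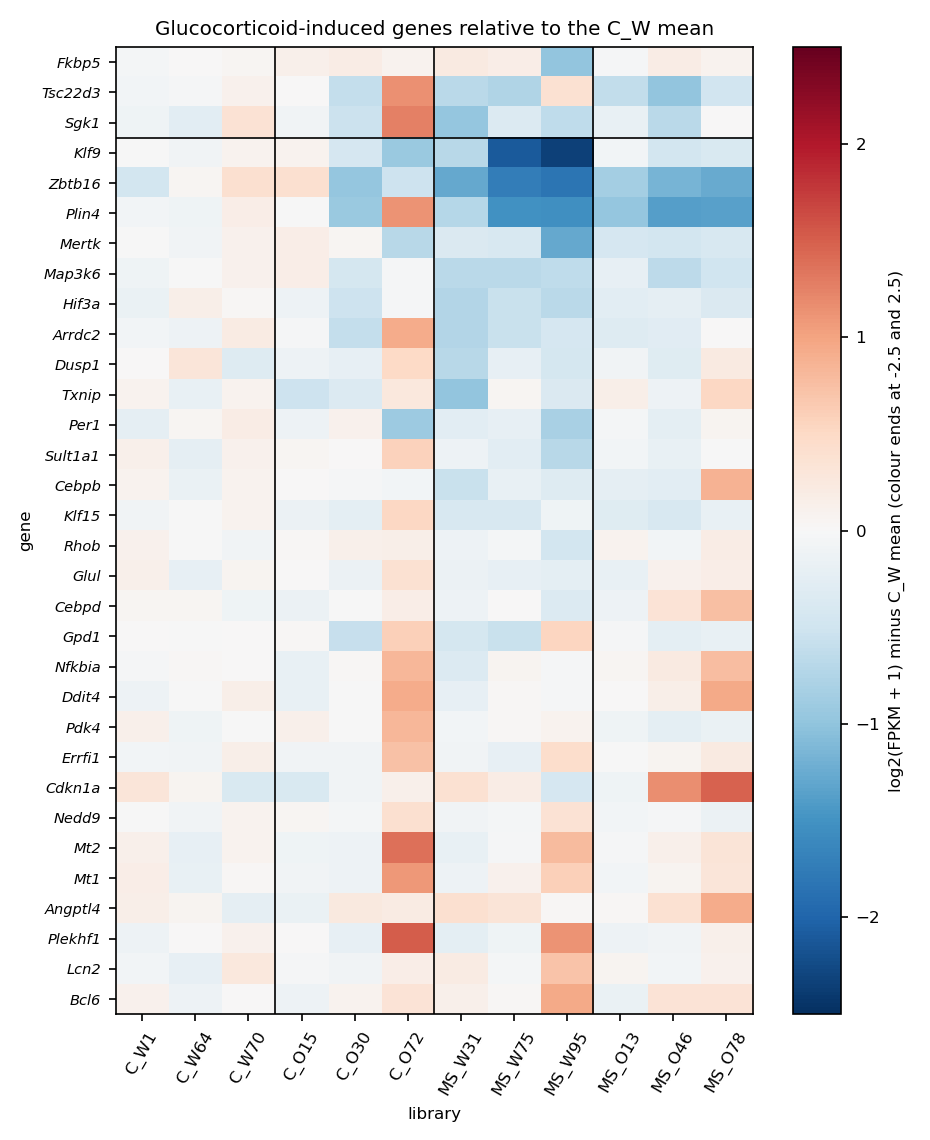
Log2(FPKM + 1) of Fkbp5, Tsc22d3 and Sgk1 (above the line) and of the 29 tested glucocorticoid-induced genes (below it, ordered by their MS_W mean) minus the C_W mean of each gene, in the 12 libraries. Blue is below and red above the C_W mean. Klf9, Zbtb16 and Plin4 are blue in MS_W, where their log2FC from C_W were -1.71, -1.62 and -1.25.

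A list of 13 peptide and receptor genes of the hypothalamus and pituitary axis had 10 tested members, of which Avp, Ucn3 and Avpr1a rose as DEGs from C_W to MS_W (2.5% of all genes were DEGs higher in MS_W) and the remaining 7 did not pass. Avp, the gene of vasopressin, which acts with CRH on the pituitary, was listed at 0.0001 in C_W1 and C_W64 and was at 0.435 FPKM in C_W70, and in MS_W it was at 32.3, 59.3 and 0.185 (log2FC 3.57, SE 1.20, limma adjusted p = 0.358). Ucn3, which encodes a CRHR2 ligand, was at 1.09 and 0.860 FPKM in MS_W31 and MS_W75 and was listed at 0.0001 in the other 10 libraries. It passed the filter for testing through those MS_W libraries alone, so its calls are no support for a difference. The vasopressin receptor gene Avpr1a was at 0.0740, 0.164 and 0.113 FPKM in C_W and at 0.605, 0.363 and 0.331 in MS_W, and at 0.119, 0.159 and 0.207 in MS_O. Ucn3 and Avpr1a were also DEGs from MS_W to MS_O, both lower in MS_O (1.39% of all genes were), and with MS_W31 left out neither comparison had a DEG of this list. From MS_W to MS_O the count was also 0 without MS_W75 and 1 without MS_O13, MS_O46 or MS_O78. Over all genes, the fit without MS_W31 called 1172 between C_W and MS_W and 828 between MS_W and MS_O. In the latter comparison, 764 were called without MS_W75, and 940, 478 and 462 without MS_O13, MS_O46 and MS_O78. Without C_O72 and MS_W95 the adjusted p of Avp in limma was 0.006 between C_W and MS_W (1.18% of all genes were below 0.05) and 0.0355 between MS_W and MS_O (0.269% of all), and over the 12 libraries its DESeq2 adjusted p from C_W to MS_W was 0.0072. The fit of 10 libraries leaves out the only MS_W library within the C_W range of Avp, MS_W95. Without MS_W95 alone the limma adjusted p from C_W to MS_W was 0.012. The summed hypothalamic markers, of which Avp is 1, were 132 and 125 FPKM in MS_W31 and MS_W75 against 2.23 to 63.9 in the other 10 libraries. Oxt, another of them, was at 20.2 and 32.7 FPKM in the same libraries and at no more than 5.31 elsewhere, and the part of the hypothalamic markers in these values was not tested.

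Of 17 genes for chaperones and cofactors of the steroid receptors, all were tested and none had an unadjusted p under 0.05 in any comparison of the limma fit of 12 libraries or was a DEG. The smallest unadjusted p from C_W to MS_W was that of Ptges3, the p23 co-chaperone gene, at log2FC 0.20 (SE 0.10, limma adjusted p = 0.507), and that from C_O to MS_O was that of the coactivator gene Ncoa2 (log2FC 0.56, SE 0.31, limma adjusted p = 0.621). Ncoa2 was at 1.43 FPKM in C_O72 and at 5.23 to 6.52 in the other 11, and its log2FC was 0.09 (SE 0.090) without C_O72 and MS_W95. In that fit of 10 libraries an unadjusted p under 0.05 was found for Ppp5c and Nrip1 from C_W to MS_W (both lower), Ncoa1 (lower) and Hsp90aa1 (higher) from C_O to MS_O, Hsp90aa1 from C_W to C_O (lower), Ppp5c and Crebbp from MS_W to MS_O (both higher), and Nrip1 in the interaction. These were 2, 2, 1, 2 and 1 of 17 genes, where 15.3%, 13.7%, 3.98%, 8.42% and 7.46% of all had one, none was a DEG in the 4 pairwise comparisons, and the smallest adjusted p in limma was 0.222. Of 16 genes of steroid metabolism and transport, 11 were tested. Akr1c14, a 3α-hydroxysteroid dehydrogenase gene, rose from 0.154, 0.235 and 0.275 FPKM in C_W to 0.509, 0.636 and 0.501 in MS_W (log2FC 0.34, SE 0.092, limma adjusted p = 0.282, DESeq2 adjusted p = 0.0394). Tspo, a mitochondrial membrane protein gene, rose from 1.96, 1.36 and 1.38 FPKM in C_W to 1.998, 2.76 and 5.23 in C_O (limma adjusted p = 0.908, where 0.865% of all genes were DEGs higher in C_O), and Akr1c18, a 20α-hydroxysteroid dehydrogenase gene, rose from 2.23, 0.834 and 0.0421 FPKM in MS_W to 1.43, 4.85 and 5.01 in MS_O (limma adjusted p = 0.810). The last pair of calls was lost in the 10 libraries. The adrenal genes Mc2r and Cyp21a1 and the corticosteroid-binding globulin gene Serpina6 were listed at 0.0001 in all 12 libraries.

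For each of the 10 genes, the genes with a mean of at least 1 FPKM whose log2(FPKM + 1) followed it most closely over the 12 libraries were sought. All 12 share C_O72 and MS_W95, so each Pearson r is given with that over the other 10, as a description. Irs1, an insulin receptor substrate gene, followed Crhr1 at 0.964 (0.972 in 10), Ramp3 followed Nr3c1 at 0.952 (0.953) and Nrde2 followed Nr3c2 at 0.940 (0.953), so these were as close without the 2 libraries. For Hsd11b1 the closest was Sgpp2 at 0.969 (0.808), for Fkbp5 Epb41l2 at 0.967 (0.609), and for Crhbp 4833422C13Rik at 0.957 (0.757), and these were less close without them. Ina, a neuronal intermediate filament gene, followed Tsc22d3 at 0.973 (0.922), Sec61g followed Crhr2 at 0.938 (0.912) and Il18 followed Crh at 0.895 (0.858). Arrdc2, which was also on the glucocorticoid-induced list, followed Sgk1 at 0.950 (0.871), with 9.26 FPKM in C_O72 and 2.23 to 5.17 in the other 11 libraries.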

How the data were processed

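Poly(A) RNA of 12 whole brains was read from stranded libraries. Per the labels and methods, the authors trimmed reads with cutadapt 1.9, aligned them to mm10 with HISAT2 2.0.4, assembled transcripts with StringTie 1.3.4d and estimated expression with Ballgown. The deposited FPKM, listed at 0.0001 where no estimate was made, were used in the main tests. The estimated counts, deposited beside them and derived from coverage, were not scaled by the authors and were used for depth and for edgeR 4.0.16 and DESeq2 1.42.0 as alternatives. The handling of strand in counting is not given in the sources used here.

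In R 4.3.3, limma 3.58.1 (lmFit, eBayes with trend) was fitted to log2(FPKM + 1) of 21393 genes, those averaging 0.1 FPKM or more, with the 4 groups in 1 fit and Benjamini-Hochberg adjustment over all of them, and was tested on simulated data. Fold changes on that scale understate those of low genes. The fit without C_O72 and MS_W95 tested 21171 genes. The 3 mice of a group were picked from it at random. In limma a p-value sets a difference against the spread between mice within groups. That spread was pooled over the 4 groups and moderated across genes. Sequences are from RefSeq (GRCm38.p6). The 10 genes, the lists and the tests were chosen with earlier results of these data known. Named are the 10 genes, the genes most like each, every list gene past the DEG criteria (up to 4 a list and comparison, by p) or else the smallest p, and markers that moved with a gene. Map3k6 and Plin4 were named within a count, and the absent adrenal genes, Oxt and the receptor ratio were chosen after their values were seen. A gene of the hindbrain marker list is not reported here and was left out of its sum. Alternatives were a pseudocount of 0.1, no filter, a filter at 1 FPKM, quantile scaling, median centring, fits of the groups compared, a linear model with a summed-level covariate, a fold taken from limma, edgeR, DESeq2, the 10 libraries and leaving out each mouse. The summed-level covariate was the sum of a library's log2(FPKM + 1) values below their upper quartile. The alternatives were applied to the list genes after the data were seen. Figures were made with Python 3.11.15 and matplotlib 3.10.9.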

Additional observations from a re-analysis of the deposited data

How the results depend on the processing

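No paired analysis was possible because the mouse numbers differ between the groups, so no number joins samples across them. The 10 genes gave 50 differences and 845 alternative values, of which 778 kept their direction, 67 took the other, and 0 passed an adjusted p of 0.05. Under every alternative run, 24 of the 50 kept their direction, and 13 took the other in the 10 libraries without C_O72 and MS_W95. Leaving out a library leaves 2 mice in its group, and the shallowest values, those of Crhr2, rested on 28 to 166 estimated counts per library. The cause of the changes below was not tested, except that a filter at 1 FPKM removes Crhr2, whose low values also cannot reach the fold limit in limma.

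Between C_W and MS_W the DEG count of 1 among the 10 genes was 0 with a filter at 1 FPKM, with median centring, with the summed-level covariate and with the fold from limma, 2 in the 10 libraries, and 0 to 1 with 1 library left out. Over all genes the main fit called 983 of 21393, the 1 FPKM filter 366 of 13621 and the 10 libraries 1217 of 21171. Median centring called 986, the covariate model 302 and the limma fold 264. Between C_O and MS_O the count of 0 was 1 with quantile normalization and with median centring (736 and 769 of all 21393 genes), 2 in edgeR, 2 in DESeq2, and 0 to 2 with 1 library left out. Between C_W and C_O it was 1 in edgeR, 1 in DESeq2 and 0 to 1 with 1 library left out, and between MS_W and MS_O it was 1 in DESeq2. For the interaction, the count of genes with an unadjusted p under 0.05, without a fold limit, was 1 in edgeR, 1 in DESeq2, 1 in the 10 libraries (Crhr1), and 0 to 1 with 1 library left out.

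The log2FC of Crh from C_W to MS_W, near 0, was -0.0046 with a pseudocount of 0.1, -0.0646 after quantile normalization, -0.0801 after median centring, -0.0559 with the summed-level covariate, -0.0305 in edgeR and -0.0353 in DESeq2, and ranged from -0.1349 to 0.2901 with 1 library left out. In the same comparison, the model with the summed-level covariate gave 0.1376 for Nr3c1, 0.0351 for Fkbp5 and -0.9961 for Hsd11b1, and the 10 libraries gave 0.2019 for Fkbp5 and -0.781 for Hsd11b1. With 1 library left out, Fkbp5 ranged from -0.4094 (without MS_W31) to 0.2019 (without MS_W95) and Hsd11b1 from -0.781 (without MS_W95) to 0.6502 (without MS_W75). From C_O to MS_O, Crhr2 was -0.0519 after median centring and -0.0082 with the summed-level covariate, and ranged from -0.0455 to 0.1338 with 1 library left out. Sgk1 was 0.0377 in the 10 libraries and ranged from -0.8669 (without C_O30) to 0.0377 (without C_O72).

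Among the glucocorticoid-induced genes, the 5 DEGs between C_W and MS_W were 1 with the summed-level covariate and 3 with the fold from limma. Over all 21393 genes, the 983 DEGs of the main fit were 302 and 264 under these settings. DESeq2 moved 7 calls of list genes below an adjusted p of 0.05 that limma left above it, those of Hif3a, Zbtb16, Map3k6, Klf9, Akr1c14 and Avp between C_W and MS_W and of Plin4 between C_O and MS_O, and edgeR moved none of the 7. Over all genes, the DEGs higher and lower in MS_W than in C_W numbered 534 and 449, and 341 and 645 after median centring. Those higher and lower in MS_O than in C_O numbered 603 and 161, and 418 and 351 after median centring, 402 and 299 in edgeR and 463 and 353 in DESeq2.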

Other observations

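The ratio of Crhbp to Crh, the binding protein gene to its ligand gene, was 2.36 to 3.55 in C_W, 1.95 to 3.10 in C_O, 1.80 to 2.25 in MS_W and 1.48 to 3.43 in MS_O. All MS_W values lay below all C_W values. The ratio of Sgk1 to Tsc22d3 was 0.989 to 1.40 in C_W, 1.08 to 1.27 in C_O, 0.552 to 1.57 in MS_W and 1.496 to 1.65 in MS_O, where all MS_O values lay above all C_O values. Both ratios of FPKM were chosen after the values were seen and are given without a test.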
